A study of Mus musculus with 6 samples.

Results

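The 10 genes described here are the 4 members of the Fos family (Fos, Fosb, Fosl1 and Fosl2), the 3 members of the Jun family (Jun, Junb and Jund), and 3 further immediate early genes, Egr1, Atf3 and Btg2. They were found by gene symbol among the 39179 Ensembl genes of the count table, by name alone. By the labels, RNA was sequenced from primary osteosarcomas of 6 mice. All carried a single mutated copy of the tumor suppressor gene Nf2 (Nf2Δ2/+) on a mixed C57BL/6 x 129/Sv x FVB background. Tumors No244, No316 and No368 came from CD44+/+; Nf2Δ2/+ mice and tumors No203, No279 and No364 from CD44-/-; Nf2Δ2/+ mice. Ages and treatments are not named in the labels, and every mouse had the Nf2 mutation, so the only contrast named is the Cd44 genotype. The tumors also differed in tissue content and in Y-linked transcripts, as given below. Where values of single tumors are listed, they follow the order No244, No316, No368 for CD44+/+ and No203, No279, No364 for CD44-/-. The protocol text of the labels speaks of cell lines, whereas the titles and the study's methods speak of tumor tissue.

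Fos and Jun proteins pair through a leucine zipper to form the transcription factor AP-1, which binds the TPA response element (TRE), and Jun proteins also pair with ATF and CREB proteins on the related cyclic AMP response element (CRE). Genes of this group are transcribed within minutes of a growth factor or stress signal, mostly through serum response factor and its partners downstream of ERK, and their transcripts are short-lived. In bone, excess Fos gives osteosarcoma in mice, and Fos and Fosl2 take part in osteoclast and osteoblast differentiation.

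The promoter sequences of Fos, Jun and Btg2 are shown because they hold CRE or TRE-like motifs, and because the genotypes overlapped fully for Fos, in part for Jun and not at all for Btg2. They are RefSeq windows on GRCm38.p6, from 250 bases before to 50 bases after the annotated start, and 8 of the 10 members had such a window. Egr1 and Fosl1 had none. Capitals mark the CRE core (TGACG) and the TATA box in Fos, the TRE-like site of Jun (TGACATCA), and in Btg2 the full CRE (TGACGTCA) followed by the CD44 intracellular domain response element (CIRE, CCTGCG), which lies on the opposite strand and therefore reads CGCAGG.
Fos, chr12:85473640-85473939, plus strand: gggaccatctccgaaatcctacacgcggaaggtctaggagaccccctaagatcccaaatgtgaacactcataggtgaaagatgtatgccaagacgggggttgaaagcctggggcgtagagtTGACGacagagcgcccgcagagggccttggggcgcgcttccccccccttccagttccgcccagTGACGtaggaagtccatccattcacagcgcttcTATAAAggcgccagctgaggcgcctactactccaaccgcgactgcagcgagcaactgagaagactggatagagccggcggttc
Jun, chr4:95052173-95052472, minus strand: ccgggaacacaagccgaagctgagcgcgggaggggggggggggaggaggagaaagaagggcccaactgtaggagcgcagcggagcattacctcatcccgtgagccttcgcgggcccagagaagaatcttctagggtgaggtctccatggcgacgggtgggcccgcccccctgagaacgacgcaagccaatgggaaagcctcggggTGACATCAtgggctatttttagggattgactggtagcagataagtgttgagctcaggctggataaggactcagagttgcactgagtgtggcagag
Btg2, chr1:134079106-134079405, minus strand: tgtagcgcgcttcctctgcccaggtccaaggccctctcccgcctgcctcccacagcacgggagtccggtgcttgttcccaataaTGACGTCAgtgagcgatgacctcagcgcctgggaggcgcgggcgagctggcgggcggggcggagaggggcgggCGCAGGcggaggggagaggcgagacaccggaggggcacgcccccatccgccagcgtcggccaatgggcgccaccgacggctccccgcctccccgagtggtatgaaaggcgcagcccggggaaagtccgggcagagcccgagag

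Both strands were searched. The Fos window held CRE cores at -129 to -125 and at -66 to -62 and a TATA box (TATAAA) at -33 to -28, counted from the base before the start as -1. The TRE-like site of Jun lay at -45 to -38. The CRE of Btg2 lay at -166 to -159, which also gives a TGACG match on each strand, and its CIRE at -93 to -88. A CRE was found in 1 of the 8 windows and in 1.79% of all 32851 windows, and a CRE core in 5 of 8 (Fos, Fosb, Junb, Atf3 and Btg2) and in 20.8%. The CIRE occurred in 3 of 8 (Fosl2, Atf3 and Btg2) and in 17.3%. The TRE itself (TGACTCA, or TGAGTCA on the other strand) occurred in 0 of 8 and in 5.2%, and the CArG box of serum response factor in 0 of 8 and in 1.63%. The CCAAT box (CCAAT) occurred in 4 of 8 and in 37.4%, the GC box (GGGCGG) in 6 of 8 and in 35.7%, and the TATA box in 2 of 8 (Fos, Junb) and in 13.6%. The TATAAA match of Junb covered bases 1 to 6 from the annotated start onward, and did not lie ahead of it as in Fos. The window of Jund, which held none of these motifs, ends before the Jund gene of GENCODE M21 begins (chromosome 8, 70698949 to 70700616). A match is only a run of letters, and the tumors gave no measurement of binding. Sequence outside the windows was not searched, so a motif counted as absent may lie further from the start.

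**Figure D1:**
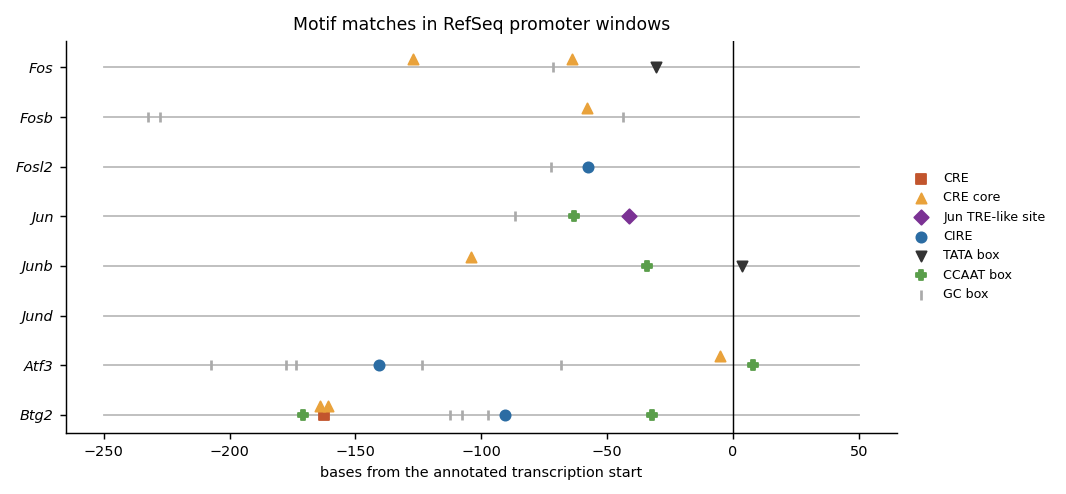
Motif matches (symbols) along the RefSeq promoter windows of 8 members (rows), by distance in bases from the annotated start. Btg2 was the only one of the 8 with a full CRE, and Fos had a pair of CRE cores ahead of its TATA box.

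Total counts lay between 18076388 and 26954142 per tumor. Cd44 was lower in each CD44-/- tumor (15.7 to 61.8 CPM) than in each CD44+/+ tumor (137.3 to 243.6 CPM). Libraries No316 and No368 were nearly the same, since 87.2% of genes with 20 or more counts in the pair differed by less than sampling noise against 15.7% to 24.0% in other pairs. They were counted as 1 sample in each genotype mean and SD, which leaves 2 independent CD44+/+ samples. In the main edgeR fit and in means over all libraries they entered as 2 libraries. Whether this pair came from 2 tumors, as the labels say, was not tested. The tumors differed in tissue content. Hepatocyte markers summed to 160616 CPM in No364 and to between 89.3 and 206.5 CPM in the others, and No364 was highest for 11 of the 11 markers tested, none of which was at 0 counts in any tumor. Epithelial markers summed to 1970 CPM in No364 and to at most 36.3 CPM elsewhere. Krt8 (963.2 CPM) and Krt18 (958.6 CPM) made up most of the sum in No364, where each other marker was at most 37.9 CPM. Krt14 was highest in No203 (4.24 CPM). Skeletal muscle markers summed to 18730 CPM in No244 and to between 14.8 and 713.7 CPM elsewhere, and mitochondrial genes took 55.2% of the counts of No244. Osteoblast markers summed to 3691 CPM in No364, against 22539 to 84906 CPM in the other tumors. Sp7, a defining osteoblast factor, was at 0.314 CPM in No364 and 3.96 CPM in No279, against 192.0 to 333.2 CPM in the other 4. Y-linked transcripts were counted in No279 (1333 counts) and No364 (1329 counts), with at most 39 in any other tumor. The part of these transcripts in the results was not tested. In bulk tissue, fewer cells of a type and less RNA per cell cannot be told apart.

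No member passed the test between genotypes. In edgeR's quasi-likelihood test with Benjamini-Hochberg adjustment over the 16839 genes that passed the low-count filter, 0 of the 10 members had an adjusted p under 0.05, and the share over all genes was 0.0%. DESeq2 also called 0 members, where it called 2.33% of all genes with an adjusted p. At an unadjusted p under 0.05, edgeR gave 2 members, Btg2 and Jun, both with higher levels in CD44-/- tumors. This is 2 of 10, against 10.7% of all genes in either direction (6.44% higher and 4.31% lower). Without No364 the members past this level were also 2, Btg2 and Fosl2, against 8.82% of all genes, and with No316 and No368 summed only Btg2 remained past it, against 4.26%. The fitted log2 fold change was above 0 for 9 of 10 members, where 55.1% of all genes were above 0. The median over the members was 0.41, and over all genes 0.11. The members' median was 0.086 without No279, where 5 of 10 members were above 0, 0.22 without No244 and 0.245 by library size alone. It was 0.495 without No364, where the median over all genes was 0.043. With No316 and No368 summed it was 0.55, and with a hepatocyte score as a covariate 0.58. For settings other than these without No364 and the main fit, the median over all genes was not taken. All 10 members passed the low-count filter, although Fosl1 had only 2 counts in No244. The libraries of one genotype varied widely, with a biological coefficient of variation of 0.708, for which No316 and No368 entered as separate libraries.

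**Figure D2:**
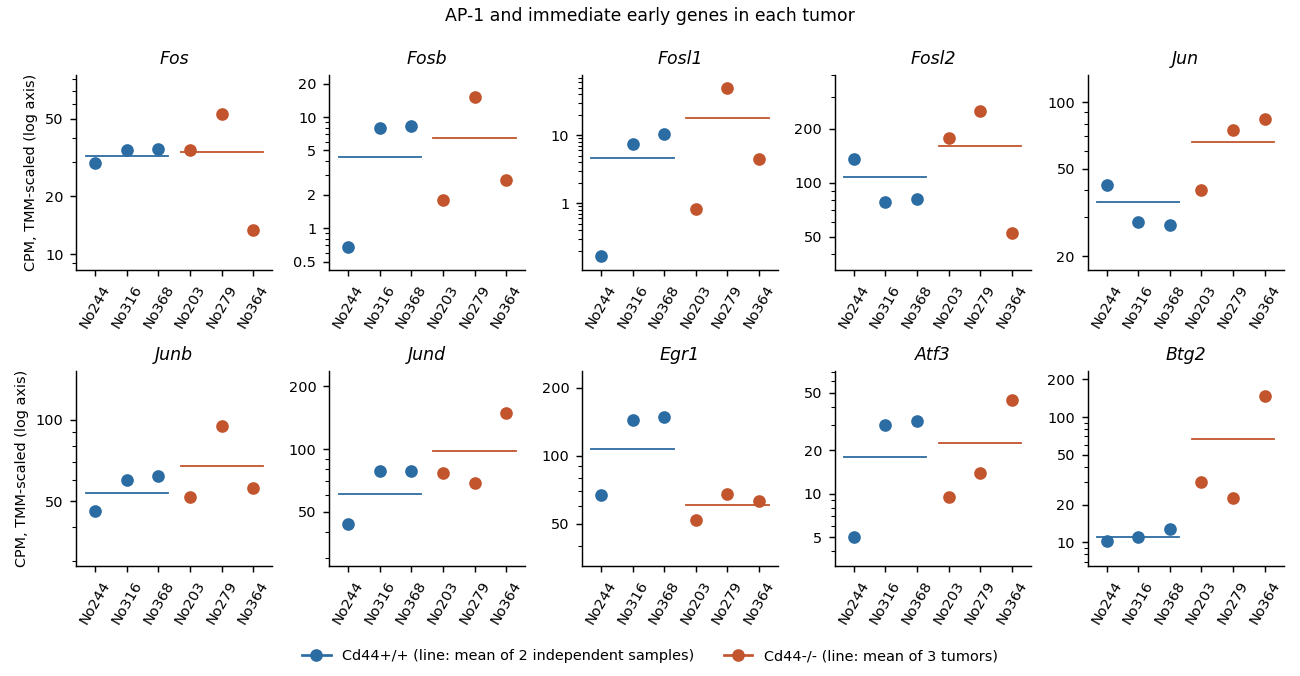
Level of each of the 10 genes (panels) in each tumor, in CPM scaled by the TMM method, on log axes with a separate range per gene. Points are single tumors and lines are genotype means (2 independent CD44+/+ samples, 3 CD44-/- tumors). The genotypes are apart only for Btg2.

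Btg2, an antiproliferative gene that p53 switches on and whose protein speeds the removal of mRNA tails, had the largest fitted fold change with all tumors included, whereas without No364 that of Fosl1 was larger (log2 2.03). It was at 10.3, 10.98 and 12.6 CPM among CD44+/+ tumors. The CD44-/- group had 30.5, 22.7 and 146.1 CPM. Every CD44-/- tumor lay above every CD44+/+ tumor, which was the case for 9.49% of all genes in this direction and the reverse for 9.57%, and No364 stood far above the rest. The means were 11.03 ± 1.10 (SD, n = 2) and 66.5 ± 69.1 CPM (SD, n = 3), a difference within 1 SD of the CD44-/- group. The fitted log2 fold change of Btg2 was 2.56 (standard error 0.76, edgeR adjusted p = 0.452), and DESeq2 gave an adjusted p of 0.0740, the lowest among all settings tried, which reached up to 0.989. Without No364, the tumor with the hepatocyte transcripts, it was 1.24 (standard error 0.34, edgeR adjusted p = 0.545), with an unadjusted edgeR p of 0.0113 against 0.0129 with all tumors. Both p-values count the near-identical No316 and No368 as 2 libraries. With that pair summed into 1 library, the unadjusted edgeR p of Btg2 was 0.0373. With the pair summed and No364 also left out, it was 0.0654. No annotated gene overlaps Btg2 (ENSMUSG00000020423, GRCm38 chromosome 1, 134075170 to 134079120, minus strand).

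Jun, the founding member of its family and the main target of the JNK kinases, was at 42.2, 28.7 and 27.7 CPM in CD44+/+ tumors. It was at 40.0, 75.01 and 83.7 CPM in CD44-/- tumors. The CD44-/- tumors No279 and No364 were above all others, whereas No203 lay just below the CD44+/+ tumor No244. The means were 35.2 ± 9.91 (SD, n = 2) and 66.2 ± 23.1 CPM (SD, n = 3). The log2 fold change of 1.01 (standard error 0.40, edgeR adjusted p = 0.452) stayed between 0.82 and 1.248 whichever tumor was removed. Its unadjusted edgeR p of 0.0401 became 0.140 when No316 and No368 were summed into 1 library. Jun (ENSMUSG00000052684, chromosome 4 of GRCm38, 95049034 to 95052222, minus strand) is overlapped by the antisense gene Junos, and the strand setting of the counting is not given in the sources used here.

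Egr1, a zinc finger factor induced through serum response factor, was the only member with a fitted log2 fold change below 0. Its level was 67.1, 143.7 and 148.2 CPM in CD44+/+ tumors. In CD44-/- tumors it was 51.8, 67.5 and 62.8 CPM. The near-identical libraries No316 and No368 were high, and the third CD44+/+ tumor, No244, sat within the range of the CD44-/- tumors. The means were 106.5 ± 55.8 (SD, n = 2) and 60.7 ± 8.09 CPM (SD, n = 3). Egr1 had a log2 fold change of -0.98 (standard error 0.41, edgeR adjusted p = 0.460), and every alternative left it between -1.27 and -0.81.

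**Figure D3:**
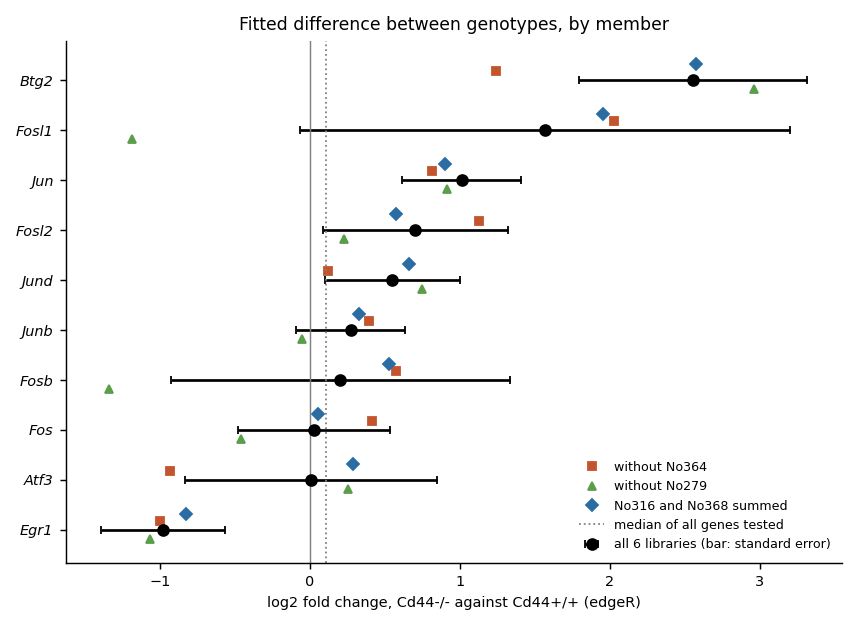
Fitted log2 fold change of each member, CD44-/- against CD44+/+, with all 6 libraries (black, bars are standard errors), without No364, without No279, and with No316 and No368 summed. Fosl1, Fosb, Junb and Fos change sign without No279, Atf3 changes sign without No364, and Btg2 drops from 2.56 to 1.24 without No364.

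Fos itself was nearly level over 4 of the 6 libraries, No244, No316, No368 and No203. It was at 29.7, 34.5 and 35.0 CPM in CD44+/+ tumors, and at 34.7, 53.0 and 13.3 CPM in CD44-/- tumors. The highest and the lowest tumor were thus both CD44-/-. The genotype means were 32.2 ± 3.59 (SD, n = 2) and 33.7 ± 19.9 CPM (SD, n = 3), and the log2 fold change was 0.03 (standard error 0.51, edgeR adjusted p = 0.987). No annotated gene overlaps Fos (ENSMUSG00000021250, GRCm38 chromosome 12, 85473890 to 85477273, plus strand).

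The other Fos family genes were also highest in No279. Fosl2, which encodes Fra-2, was at 136.1, 78.2 and 81.6 CPM in CD44+/+ tumors, and at 178.0, 251.4 and 52.1 CPM in CD44-/- tumors. Its lowest tumor was No364, as for Fos. Fosl2 had a log2 fold change of 0.70 (standard error 0.62, edgeR adjusted p = 0.669), which was 1.13 without No364 (standard error 0.40, edgeR adjusted p = 0.545). Fosl1, which encodes Fra-1 and is itself a target of AP-1, was at 0.168, 7.37 and 10.5 CPM in CD44+/+ tumors. It was at 0.833, 48.4 and 4.501 CPM in CD44-/- tumors, so 1 CD44-/- tumor exceeded all others and another was near the bottom. Over the 5 independent samples its log2 level had an SD of 2.93, above that of 97.2% of all genes tested. Its log2 fold change of 1.57 (standard error 1.64, edgeR adjusted p = 0.721) became -1.19 without No279. Fosb was at 0.672, 8.03 and 8.27 CPM in CD44+/+ tumors, and at 1.78, 15.1 and 2.72 CPM in CD44-/- tumors. Its log2 fold change of 0.20 (standard error 1.13, edgeR adjusted p = 0.955) became -1.34 without No279 and was -0.32 without No244. Fosb and Fosl1 thus ranked the tumors in a like way, with No244 and No203 lowest and No279 highest. Fosl1 (ENSMUSG00000024912, chromosome 19, 5447547 to 5455946) is overlapped on the opposite strand by Ccdc85b.

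Junb and Jund, of which Jund is also present in resting cells, varied less. Junb was at 45.9, 59.99 and 62.0 CPM in CD44+/+ tumors, and at 51.8, 94.9 and 55.9 CPM in CD44-/- tumors. Only No279 stood above the CD44+/+ range. With an SD of 0.40 over the 5 independent samples, its log2 level varied more than that of only 13.2% of all genes. Junb had a log2 fold change of 0.27 (standard error 0.37, edgeR adjusted p = 0.789), and -0.055 without No279. Jund was at 43.7, 78.4 and 78.0 CPM in CD44+/+ tumors, and at 76.4, 68.4 and 148.2 CPM in CD44-/- tumors. Here No364 was the highest tumor and No244 the lowest, and the other 4 libraries lay close together. The log2 fold change of 0.55 (standard error 0.45, edgeR adjusted p = 0.649) was 0.12 without No364. The gene Prdx2 overlaps Junb and the antisense gene Gm11175 overlaps Jund, both on the opposite strand.

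Atf3, a stress-induced member of the ATF family that can pair with Jun proteins, was at 5.04, 30.1 and 31.95 CPM in CD44+/+ tumors. In CD44-/- tumors it was at 9.48, 13.9 and 44.3 CPM. Both genotypes held low and high tumors, with No244 lowest and No364 highest. Atf3 had a log2 fold change of 0.01 (standard error 0.84, edgeR adjusted p = 0.997), and -0.93 without No364 (edgeR adjusted p = 0.736). Its sign also changed with the scaling, to -0.48 by library size alone.

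Across the 10 genes, No279 was the highest tumor for 5 (Fos, Fosb, Fosl1, Fosl2 and Junb) and No364 for 4 (Jun, Jund, Atf3 and Btg2). Egr1 was highest in No368. Over all genes tested, No279 was highest for 21.5%, No364 for 25.0%, No244 for 22.9%, No203 for 14.2%, No316 for 8.59% and No368 for 7.81%. No244 was lowest for 6 members (Fosb, Fosl1, Junb, Jund, Atf3 and Btg2), and the share of all genes lowest in No244 was not counted. It was also the library with the high mitochondrial share, and a link between these was not tested. The summed level of the 10 genes was 380.7, 480.0 and 495.8 CPM in CD44+/+ tumors, and 475.3, 710.4 and 613.7 CPM in CD44-/- tumors. The CD44-/- tumor No203 thus lay within the CD44+/+ range. Scaled by library size alone, the sums were 214.8, 630.4 and 653.3 CPM in CD44+/+ tumors and 528.6, 876.4 and 435.1 CPM in CD44-/- tumors, so that No364 then also lay within that range. Profiles were compared by the root mean square difference of log2 levels, each centred on its mean over the 5 independent samples. The closest pair of members was Fos and Fosl2 (0.42), followed by Jun and Junb (0.54) and Fos and Junb (0.55).

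To compare genes with each other, levels were divided by exon length (CPM per kb). By the median over the 5 independent samples, Jund was the most abundant member at 45.8 CPM per kb (range 26.2 to 88.9), followed by Junb at 24.3 (range 19.9 to 41.2). Egr1 (15.0), Fos (14.8), Fosl2 (14.1) and Jun (13.2 CPM per kb) came next. Btg2 was at 8.29, Atf3 at 6.45, Fosl1 at 2.21 and Fosb at 0.436 CPM per kb. The ranges of all neighbours in this order overlapped, although Jund lay above Junb in 5 of the 6 tumors. The highest value of Fosb (2.42) was below the lowest of Fos (5.65 CPM per kb). Exon length counts all annotated exons, so that a gene with long exons used in few transcripts is understated.

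The makeup of both families varied between tumors. The Fos family summed to 26.9, 27.7 and 29.8 CPM per kb in CD44+/+ tumors, and to 33.9, 74.7 and 13.7 in CD44-/- tumors. Fos and Fosl2 together made up most of it in each tumor. Fosl1 gave 31.9% of the family in No279, 16.2% in No364 and 1.21% in No203, against 0.308%, 13.1% and 17.3% in CD44+/+ tumors. The Jun family summed to 59.4, 82.1 and 82.4 CPM per kb in CD44+/+ tumors, and to 80.8, 105.8 and 139.4 in CD44-/- tumors. Jund gave between 38.76% (No279) and 63.7% (No364) of it. The ratio of the Jun to the Fos family sum lay between 1.42 (No279) and 2.97 in 5 libraries and was 10.2 in No364, the tumor with hepatocyte transcripts and few osteoblast transcripts.

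**Figure D4:**
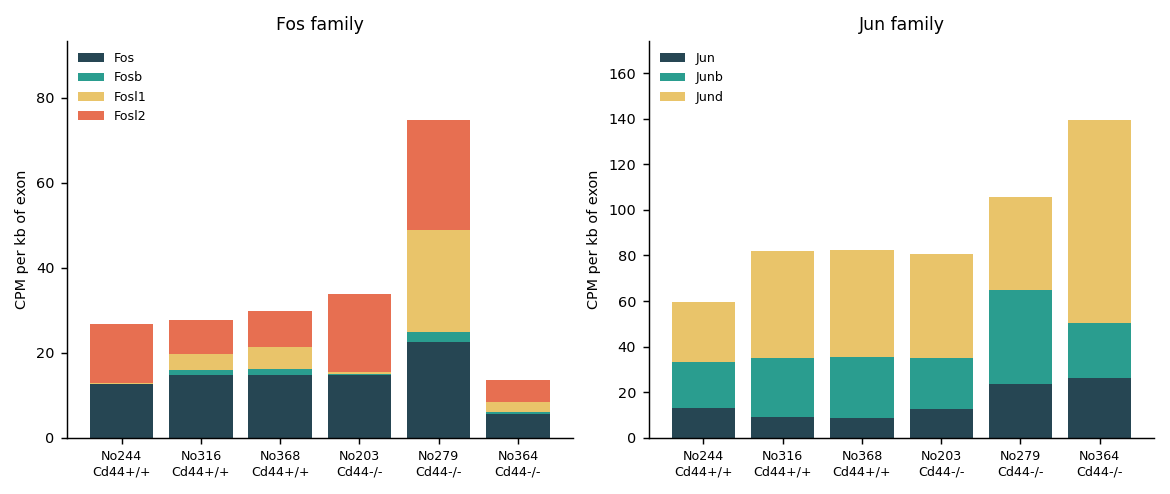
Summed level of the Fos family (left) and the Jun family (right) in each tumor, in CPM per kb of exon, stacked by member. The Fos family reaches 74.7 in No279 and 13.7 in No364, and the Jun family is highest in No364 at 139.4.

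Among 12942 other genes with a mean of at least 5 CPM, those with the profile closest to Fos over the 5 independent samples were Ankrd13a (root mean square difference 0.09 on the log2 scale), Rasa2 (0.10) and Reep5 (0.13). The closest to Btg2 were Dhcr7 (0.11), Tubb2b (0.15) and Zfand4 (0.19), and each of these also had its highest level in No364. Egr1 was matched most closely by Tnfrsf1a (0.10), Myzap (0.10) and Nedd9 (0.10), Junb by Myo1c (0.04) and Zfx (0.07), and Atf3 by Cerkl (0.19), Tmed5 (0.19) and Zfpm1 (0.20). For Jun they were the ribosomal pseudogenes Rps19-ps4 (0.05) and Rpl10-ps2 (0.10) and the gene Ermp1 (0.11). Rps19-ps4 was at 81.7 CPM in No316 and 32.2 CPM in No368, so its likeness to Jun holds only for the mean of that pair. With 5 samples and so many genes, such matches are a description only.

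Of 31 other immediate early genes, 30 were tested and Egr4 had no count in any tumor. edgeR called 0, and at an unadjusted p under 0.05 there were 2 with higher and 1 with lower levels in CD44-/- tumors (background 10.7% in either direction). Ptgs2, which encodes the inducible cyclooxygenase, was at 0.504, 2.85 and 2.85 CPM in CD44+/+ tumors and at 13.4, 52.9 and 4.19 CPM in CD44-/- tumors. The genotypes did not overlap, which was the case for 9.49% of all genes in this direction. The log2 fold change of Ptgs2 was 3.48 (standard error 1.11, edgeR adjusted p = 0.452). It was the 1 gene of this list that DESeq2 called (adjusted p = 0.0493). Arc, known from stimulated neurons, had a log2 fold change of 3.97 (edgeR adjusted p = 0.452) on few reads, from 0 to 4 in CD44+/+ and 16 to 147 in CD44-/- tumors. Nr4a1, an orphan nuclear receptor, was at 15.0 to 37.8 CPM in CD44+/+ and 7.48 to 14.5 CPM in CD44-/- tumors, with a log2 fold change of -1.35 (edgeR adjusted p = 0.452). The median over the list was 0.15, close to that of all genes. The growth-responsive matrix genes Ccn2 and Ccn1 had the highest levels, with means of 620.2 and 393.1 CPM over all libraries, No316 and No368 counted separately.

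Among the genes upstream and around AP-1, edgeR again called none. Of 21 other bZIP genes, which encode the possible partners, 1 had higher and 2 had lower levels in CD44-/- tumors at an unadjusted p under 0.05, a level passed by 10.7% of all genes (6.44% higher and 4.31% lower). Cebpd was at 15.7 to 21.0 CPM in CD44+/+ and at 21.5 to 86.6 CPM in CD44-/- tumors (log2 fold change 1.44, edgeR adjusted p = 0.452). The small Maf gene Mafg (-0.92) and the stress gene Ddit3 (-1.08) were lower in every CD44-/- tumor than in every CD44+/+ tumor (edgeR adjusted p = 0.452 for both). This held for 2 of the 21 genes, against 9.57% of all genes in this direction. Of 23 kinases and serum response factor partners, only Map2k4, whose kinase activates JNK, was past that unadjusted level (log2 fold change 0.77, edgeR adjusted p = 0.460). Mapk14, which encodes p38 alpha, had -1.02 and Rps6ka3 had -0.76 (edgeR adjusted p = 0.463 and 0.512). Of 10 genes that feed back on ERK, none was past it, and 7 were highest in No279, as were 21.5% of all genes. Dusp4, a phosphatase of ERK and JNK, was at 37.5 CPM there and at 1.53 to 4.61 CPM elsewhere (log2 fold change 2.63, edgeR adjusted p = 0.463). Spry1 had a log2 fold change of -0.85 and Etv5 of -0.95 (edgeR adjusted p = 0.491 and 0.573).

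Of 16 textbook targets of AP-1, edgeR called 0 and DESeq2 4, where DESeq2 called 2.33% of all genes. The 4 were Ccl2, Mmp3, Tnfrsf11b and Cd44, and the difference in Cd44 was set by the design. At an unadjusted edgeR p under 0.05, 2 had higher levels (Ccl2 and Mmp3, against 6.44% of all genes) and 2 lower levels (Cd44 and Tnfrsf11b, against 4.31%) in CD44-/- tumors, and Cd44 is the deleted gene. The chemokine gene Ccl2 was at 0.504, 3.34 and 3.19 CPM in CD44+/+ tumors and at 5.31, 82.4 and 25.8 CPM in CD44-/- tumors. The protease gene Mmp3 was at 0.840, 1.251 and 1.09 CPM in CD44+/+ tumors and at 1.86, 46.3 and 3.82 CPM in CD44-/- tumors. Both were highest in No279, as were 5 of the 16 targets and 21.5% of all genes. Their log2 fold changes were 3.99 and 4.01 (edgeR adjusted p = 0.452 for both), and both kept the genotypes apart. Of the 16 targets, 2 were apart with higher levels in CD44-/- tumors, against 9.49% of all genes. Another 4, with Cd44 among them, were apart with lower levels, against 9.57%. Tnfrsf11b, which encodes the decoy receptor osteoprotegerin, had -4.31 (edgeR adjusted p = 0.452), with No244 at 1.68 CPM among the CD44-/- values of 0.396 to 4.48 CPM. The median over the 16 targets, with Cd44 included, was -0.38 with all tumors and 0.13 without No364.

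Heat shock genes, another early stress response, had log2 fold changes above 0 for 10 of 10 (range 0.27 to 2.95, median 0.97), against 55.1% of all genes, and 0 passed the edgeR test. With 1 tumor left out the median lay between 0.67 and 1.15, and Hsph1 went as low as -0.14. The genotypes were apart for 4 of them, Hspa8, Dnaja1, Hspe1 and Hspd1, against 9.49% of all genes in this direction. The mitochondrial chaperonin genes Hspd1 and Hspe1 had log2 fold changes of 1.34 and 1.06 (edgeR adjusted p = 0.452 for both), and Dnaja1 had 0.83 (edgeR adjusted p = 0.462). The stress-induced Hspa1a reached 207.4 CPM in No279 and 4.37 to 19.7 CPM elsewhere. No279 and No364 were each the highest tumor for 5 of the 10, against 21.5% and 25.0% of all genes. Of 7 relatives and partners of Btg2, 0 were past an unadjusted p of 0.05. Tob1, from the same antiproliferative family, had a log2 fold change of 1.51 (edgeR adjusted p = 0.470) with 89.5 CPM in No364 and 8.57 to 29.98 CPM elsewhere. The p53 target Cdkn1a had -1.04 and Trp53 0.53 (edgeR adjusted p = 0.520 and 0.703).

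**Figure D5:**
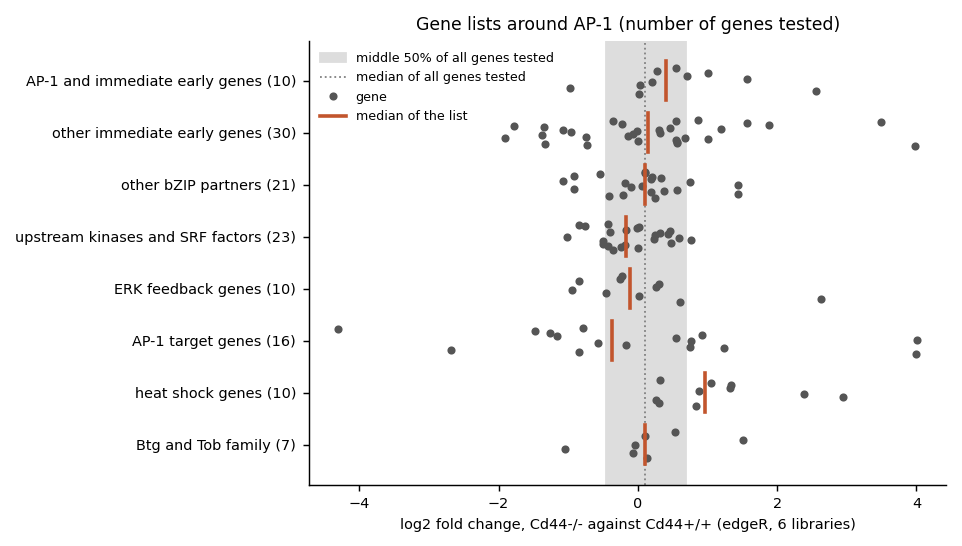
Log2 fold change, CD44-/- against CD44+/+, of each tested gene (dots) in 8 lists, with the list's median (bar) and the range from the lower to the upper quartile of all genes tested (grey, -0.46 to 0.69). The heat shock genes have a median of 0.97 and the AP-1 targets, which spread from -4.31 to 4.01, one of -0.38.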

How the data were processed

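The authors prepared stranded mRNA libraries, sequenced them as single reads, aligned the reads to GRCm38 with HISAT2 2.0.2, counted them per Ensembl gene with featureCounts (Subread 2.0.0), and deposited raw counts, 1 column per tumor. The strand and multi-mapping settings are not given in the sources used here. Symbols, positions and exon lengths came from GENCODE M21 (GRCm38), which named 37693 of 39179 genes.

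From the counts, genotypes were compared on all 6 libraries with edgeR 4.0.16 in R 4.3.3 (TMM, filterByExpr, quasi-likelihood F test, Benjamini-Hochberg adjustment over all genes, threshold 0.05). Standard errors were taken as the log2 fold change over the root of the F statistic. DESeq2 1.42.0 and limma-voom (limma 3.58.1) were alternatives. CPM values are TMM-scaled, and log2 CPM used a prior count of 2. A count of 3, the least taken as detectable, was 0.0990 to 0.252 CPM. Fits were tested on simulated counts. The pass condition was set only for edgeR, at a large fold change and at a spread well below that of these tumors. It does not show how well the fits find differences at the spread seen here. Nothing says that the tumors came from separate litters or runs, so p-values measure only the spread between libraries. In the fit on all 6, No316 and No368 entered as separate libraries although nearly the same. Its standard errors and p-values therefore rest in part on the small spread within that pair.

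Members, lists and tests were chosen with earlier results of these data known. The genes named are all members, list genes with an unadjusted p under 0.05 (at most 6 per list, otherwise the 3 with the smallest p), the 2 most abundant of a list, and the 3 closest profiles, of which 1 is not reported here. Hspa1a, Hspa8, Hsph1 and Egr4 were named after their values were seen.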

Additional observations from a re-analysis of the deposited data

How the results depend on the processing

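No member reached an adjusted p under 0.05 under any other setting tried, 3 of them chosen after the data were seen. Of 178 refitted log2 fold changes of members, 160 kept their sign. Fos was at -0.16 with limma-voom. Atf3, at 0.01 in the reported fit, was at -0.48 with library size alone, -0.029 without mitochondrial genes, -0.053 with no low-count filter, -0.011 with DESeq2, -0.24 with limma-voom and -0.95 with a hepatocyte score as a covariate. In alternatives added later, Atf3 was at -0.64 (No316 and No368 summed, without No364) and -0.95 (DESeq2 without No364). With 1 tumor left out, Fos lay between -0.46 and 0.42, Fosb between -1.34 and 0.60, Fosl1 between -1.19 and 2.22, Junb between -0.055 and 0.40 and Atf3 between -0.93 and 0.35. Fosb and Fosl1 had no value under a minimum of 10 counts in every tumor. The number of members with an unadjusted p under 0.05, 2 as reported, was 1 with library size alone, 1 with No316 and No368 summed, 1 to 2 with 1 tumor left out, 0 with the pair summed and No364 left out, and 1 with DESeq2 on the summed pair. It was 3 with DESeq2 size factors, without mitochondrial genes, with at least 10 counts in every tumor and with DESeq2, where Egr1 joined Btg2 and Jun. Over all genes, edgeR and limma-voom called 0, and DESeq2 called 419, 146 with the pair summed and 432 without No364. The number with an unadjusted p under 0.05, 1810 as reported, was 1197 with library size alone, 761 with the pair summed, 763 to 3085 with 1 tumor left out and 639 with the pair summed and No364 left out. The median of the other bZIP genes, 0.10 as reported, was -0.074 with limma-voom and -0.16 to 0.23 with 1 tumor left out. The cause of these shifts was not tested. No paired analysis was possible because the labels give each tumor its own mouse number. Fosl1 and Fosb rest on few reads in No244 (2 and 8 counts).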
